A study of Mus musculus with 8 samples.

Results

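The genes described here are the core of the LIF-STAT3 pathway and its SOCS feedback family: Lifr, Stat3, Cish and Socs1 to Socs7. They were chosen by gene symbol, and all 10 were present among the 17597 genes of the authors' deposited table. The libraries were made from total RNA of mouse embryonic stem (mES) cells of Cast x 129S background in which METTL3, the enzyme that writes N6-methyladenosine (m6A) on RNA, carries the FKBP12F36V degron at its C terminus. The degron is a small tag through which the compound dTAG-13 sends the fused protein for degradation. Of the 8 libraries, 4 came from cells given dTAG-13 for 26 hours and 4 from untreated cells, and in each group the clones C3 and H5 contributed 2 replicates apiece. Both groups carried the tag as well as a TetOn promoter in place of the endogenous promoter of one Xist allele, and neither received doxycycline, so Xist was not induced. The labels place that promoter on the 129S allele, whereas the study describes these lines with it on the Cast X chromosome. All cells grew on inactivated fibroblast feeders in medium with serum and LIF. The comparison asks which RNA levels change when METTL3 is removed acutely. Each clone is a single picked line, and no untagged cells given dTAG-13 were analysed here, so an effect of the compound itself and of METTL3 loss cannot be told apart.

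LIF binds LIFR, which pairs with gp130 (Il6st) and activates the JAK kinases bound to both receptors. The kinases phosphorylate STAT3, which enters the nucleus and keeps mES cells self-renewing. Cytokine signalling also switches on genes of the SOCS family, whose SH2 domain docks on receptors or kinases and whose SOCS box recruits elongins and cullin 5 for ubiquitination, a classical negative feedback loop. SOCS mRNAs are among the known targets of m6A, a mark that mostly shortens the life of an mRNA and lies mainly near stop codons and in long exons. The mark itself was not measured in these libraries.

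STAT dimers bind the letters TTCNNNGAA, which read the same on both strands, so the RefSeq promoter sequences (GRCm38.p6, 250 bases before to 50 after the annotated start) were searched for them. An entry was present for 6 of the 10 genes, and the letters occurred in Cish and Socs3 and not in the windows of Lifr, Stat3, Socs1 and Socs4. Of all 32851 promoters, 8.30% held at least 1 match and 0.457% held at least 2. The sequences of Cish (chr9:107296409-107296708, plus strand) and Socs3 (chr11:117969317-117969616, minus strand) are shown 5′ to 3′ because they carry the matches, which are in capitals.
Cish promoter: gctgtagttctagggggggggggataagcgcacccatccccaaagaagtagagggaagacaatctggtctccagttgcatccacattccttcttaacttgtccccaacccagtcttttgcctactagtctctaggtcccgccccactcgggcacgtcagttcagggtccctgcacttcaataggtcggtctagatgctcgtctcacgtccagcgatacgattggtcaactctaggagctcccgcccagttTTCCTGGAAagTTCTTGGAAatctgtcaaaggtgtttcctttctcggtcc
Socs3 promoter: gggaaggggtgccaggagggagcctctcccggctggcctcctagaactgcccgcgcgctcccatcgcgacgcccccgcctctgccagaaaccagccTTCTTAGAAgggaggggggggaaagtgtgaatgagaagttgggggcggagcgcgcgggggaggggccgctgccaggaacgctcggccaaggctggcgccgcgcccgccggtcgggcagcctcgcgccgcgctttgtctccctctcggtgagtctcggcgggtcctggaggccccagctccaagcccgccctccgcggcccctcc
The 2 matches of Cish began at the annotated start base and 11 bases downstream of it, and the single match of Socs3 began at position -154 from the start. These matches describe letters and are not measured binding sites.

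The letters GGAC are the most common core of the m6A consensus. The last 90 coding bases, the stretch next to the stop codon, were read from GENCODE transcripts (GRCm38) and searched on the transcript strand. Of 16352 coding genes, 36.1% held GGAC there, and 3 of the 9 genes read did so, namely Cish (chr9:107300811-107300900, plus strand), Socs2 (chr10:95412653-95412742, minus strand) and Socs3 (chr11:117967553-117967642, minus strand). Socs6 was not read. These 3 are shown, with GGAC in capitals, because they hold the letters, and Socs1 (chr16:10784233-10784322, minus strand) and Socs5 (chr17:87135155-87135244, plus strand) are shown as examples without them.
Cish coding end: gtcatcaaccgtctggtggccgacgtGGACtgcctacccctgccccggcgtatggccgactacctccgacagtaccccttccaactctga
Socs2 coding end: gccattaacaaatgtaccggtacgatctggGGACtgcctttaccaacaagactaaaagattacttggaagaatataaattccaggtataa
Socs3 coding end: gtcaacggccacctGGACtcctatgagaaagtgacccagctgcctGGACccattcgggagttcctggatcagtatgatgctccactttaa
Socs1 coding end: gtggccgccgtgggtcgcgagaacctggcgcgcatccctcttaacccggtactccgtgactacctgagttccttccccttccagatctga
Socs5 coding end: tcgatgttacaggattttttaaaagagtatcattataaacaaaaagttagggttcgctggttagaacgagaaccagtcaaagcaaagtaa
Socs3 had 2 matches and Cish and Socs2 had 1 each. Of the 6 genes without a match, Socs1 and Socs5 were higher with dTAG-13 and Lifr and Stat3 lower. Socs4 and Socs7 were not past the threshold. Of the 3 with a match, Socs2 was lower, and Cish and Socs3 were not past the threshold. Whether these letters go with the direction of change was not tested.

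The deposited table holds one comparison over both groups and no values for single libraries. The levels in each sample could therefore not be given, and whether the groups overlapped could not be seen. A mean count is the average of size-factor-scaled read counts over the 8 libraries, and the mean counts of all genes added up to 14573411. Which group is the numerator is not stated in it. A positive log2 fold change was taken to mean a higher level with dTAG-13, an uncertain reading, and the signs of all values turn around if the contrast was inverted. Mettl3, whose protein is the target of the degron, had a log2 fold change of -0.092 ± 0.31 (SE, 4 against 4 libraries, adjusted p = 0.886) at a mean count of 684. Its RNA therefore does not check the group labels or the sign. Its standard error was the largest among the 200 genes nearest to it in mean count.

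Of the 10 genes, 6 had an adjusted p under 0.05, against 20.0% of all genes in the authors' deposited table. Of these, 3 were higher with dTAG-13 (Socs1, Socs5 and Socs6), where 10.7% of all genes were, and 3 were lower (Lifr, Stat3 and Socs2), where 9.35% were. The 10 genes had a median mean count of 737, against 170 over all genes. Among the 200 genes nearest in mean count to each of them, the share past the threshold ran from 18.5% (Socs1) to 33.5% (Socs5). For coding genes whose mean count reached 10, 13.9% were higher and 12.1% lower. Among the 4 that did not pass (Cish, Socs3, Socs4 and Socs7), 3 had an unadjusted p under 0.05. The median log2 fold change of the 10 genes was 0.15, against 0.025 over all genes, with 5 values above 0 and 5 below. The receptor and the transcription factor of the pathway were thus on the lower side, and the SOCS family was divided, with 3 of its 8 members higher, 1 lower and 4 not past the threshold. With other scalings the lower member of the family was not Socs2: Socs3 took its place when the trend with GC content was removed, and none passed when values were centred on well-expressed genes, where Socs7 joined the higher ones.

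**Figure D1:**
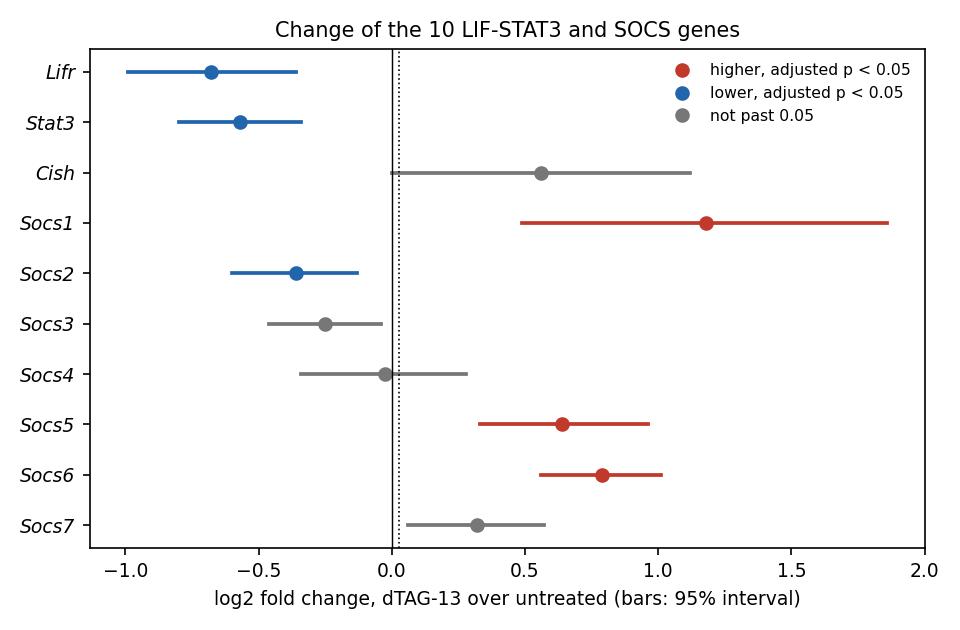
log2 fold change of each of the 10 genes, dTAG-13 over untreated, with bars for the 95% interval from the deposited standard error. The solid line marks 0 and the dotted line the median of all genes, 0.025. Socs1, Socs5 and Socs6 lie to the right of both lines with their whole interval, and Lifr, Stat3 and Socs2 to the left. The intervals of Socs3 and Socs7 clear both lines too, but their adjusted p did not pass.

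Lifr encodes the signalling chain that binds LIF. Its RNA was 1.60-fold lower with dTAG-13 (95% interval, 1.29 to 1.99), a log2 fold change of -0.68 ± 0.16 (SE, adjusted p = 0.000412), at a mean count of 1636. Only 6.22% of all genes had a value this low or lower. Its standard error was large for its level, at percentile 86.5 of the 200 genes nearest in mean count, whose median was 0.117, and 6.38 times what counting alone would give. The gene spans chr15:7090614-7197489 on the plus strand, with 19 coding exons and a last exon of 6944 bases that holds the stop codon.

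Stat3 encodes the transcription factor through which LIF acts in mES cells. It was 1.48-fold lower (1.26 to 1.74), a log2 fold change of -0.57 ± 0.12 (SE, adjusted p = 3.57e-05), at a mean count of 1079. Its standard error was ordinary for its level, at percentile 43.0 of the 200 nearest genes. The decrease was -0.52 when fold changes were centred on well-expressed genes and -0.60 when the trend with GC content was removed. Stat3 lies at chr11:100885098-100939540 on the minus strand, and 72 of its exonic bases overlap Stat5a on the opposite strand. With counting whose use of strand is uncertain, reads from those bases cannot be assigned with certainty. Stat5a had a mean count of 38.8, so its reads were few beside those of Stat3.

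Socs1 to Socs3 and Cish are the members with short coding regions and the classical cytokine-induced feedback inhibitors. Socs1, a direct inhibitor of JAK kinases, had the largest rise of the 10 genes on the deposited values. It was 2.26-fold higher (1.41 to 3.63), a log2 fold change of 1.18 ± 0.35 (SE, adjusted p = 0.00690), but at a mean count of 28.0, the lowest of the 10. Counting error alone would give 0.193, so 1.81 times that error was seen, and the interval was the widest of the group. With the GC trend removed, Socs1 was at 0.96 (adjusted p = 0.0380), and Socs6 then had the largest rise, at 0.98. Cish, which encodes CIS and is known as a target of STAT5, had a similarly low mean count of 40.0. Its log2 fold change was 0.56 ± 0.29 (SE, adjusted p = 0.165), with a 95% interval from 0.00 to 1.12. A change between none and about 2.18-fold therefore lies within that interval. The standard error of Cish was 1.77 times what counting alone would give. Exons of Cish overlap those of Gm17040 and Gm17041 on the opposite strand, over 261 and 479 bases.

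Socs2 and Socs3 were the abundant members of this subfamily, and both had negative values. Socs2, best known as the brake on growth hormone signalling, was 1.28-fold lower (1.09 to 1.51), a log2 fold change of -0.36 ± 0.12 (SE, adjusted p = 0.0187), at a mean count of 2063. This call depended on the scaling. The value was -0.31 (adjusted p = 0.0514) when centred on well-expressed genes and -0.28 (adjusted p = 0.0991) with the GC trend removed. Socs3, the principal inhibitor of gp130 signalling and a direct STAT3 target, had a log2 fold change of -0.25 ± 0.11 (SE, adjusted p = 0.0864) at a mean count of 1282. Its transcript is rich in GC (58.7%), and transcripts of that composition had a running median of 0.21. With the trend removed, its value was -0.46 (adjusted p = 0.000469), which passed the threshold.

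Socs4 to Socs7 have longer proteins with an extended N-terminal region, and Socs4 and Socs5 are known to act on the EGF receptor. Socs6 gave the smallest p of the 10 genes. It was 1.73-fold higher (1.48 to 2.02), a log2 fold change of 0.79 ± 0.11 (SE, adjusted p = 8.88e-10), at a mean count of 1167. Only the rise of Socs1 was larger as deposited, and none was with the GC trend removed (Socs6 at 0.98, adjusted p = 1.00e-14). Socs6 is known to bind the KIT and insulin receptors. Its standard error lay at percentile 40.5 of the 200 genes nearest in mean count. Socs5 was 1.56-fold higher (1.25 to 1.94), a log2 fold change of 0.64 ± 0.16 (SE, adjusted p = 0.000958), at a mean count of 205.

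Socs4, the closest relative of Socs5, had no detectable change, with a log2 fold change of -0.026 ± 0.16 (SE, adjusted p = 0.938). Its interval, -0.34 to 0.28, excludes the point estimate of Socs5, 0.64, although the difference between both genes was not tested. Its sign turned under both other scalings, to 0.024 and 0.17, neither past the threshold. Socs7, which binds the adaptor NCK, had a value of 0.32 ± 0.13 (SE, adjusted p = 0.0689) at a mean count of 395. Centred on well-expressed genes, it was 0.37 (adjusted p = 0.0296) and passed.

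**Figure D2:**
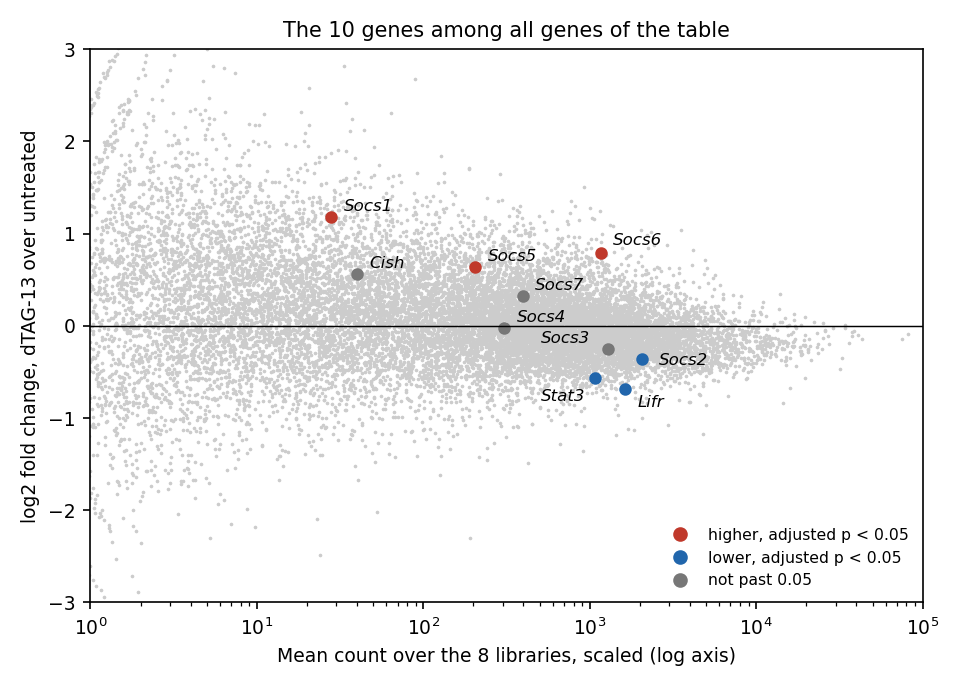
log2 fold change (dTAG-13 over untreated) against mean count over the 8 libraries (log axis) for all genes in grey and the 10 genes in colour; 1059 genes lie outside the axes. Socs1 and Cish sit at low counts among widely scattered genes, while Lifr, Stat3 and Socs6 sit at mean counts from 1079 to 1636, where the scatter is narrow.

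Counts of different genes can be compared only per length. Per kb of one transcript a gene, the order of mean counts was Socs2 at 928, Socs3 at 502, Stat3 at 239, Socs6 at 193, Lifr at 169, Socs7 at 56.3, Socs4 at 44.4, Socs5 at 44.1, Cish at 14.0 and Socs1 at 9.64. Socs2 lay at percentile 91.9 of all genes with a transcript and Socs1 at percentile 30.6. Of the genes that were higher, Socs1 and Socs5 were thus at or below the middle of the range in level. The order of near neighbours depended on the gene model. With the union of all annotated exons as length, Socs2 fell to 216 per kb, below Socs3 at 443, while Stat3 was at 113, below Lifr at 152. Socs6 moved to 103 and Cish to 6.23, below Socs1. Without values per library, no spread can be set beside these levels, and whether neighbours differ was not tested.

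Most of the SOCS genes have few coding exons, a trait that the choice by name did not use. The whole coding region lies in 1 exon in Socs1, Socs3, Socs4, Socs5 and Socs6, while Socs2 has 2 coding exons, Cish 3 and Socs7 9. The median coding gene had 8, and Lifr and Stat3 had 19 and 23. Exon number matters for m6A because exon junction complexes are known to keep the writer away from short internal exons. Among 13038 coding genes whose mean count reached 10, the 812 with 1 coding exon had a median log2 fold change of 0.070, and of these 21.9% were higher and 8.99% lower. It was 0.15 for the 1348 genes with 2 to 3 coding exons, of which 24.3% were higher and 6.31% lower. At the other end, 6.64% of the 2107 genes with 19 or more coding exons were higher and 19.8% lower, around a median of -0.13. The directions of Socs1, Socs5, Socs6, Lifr and Stat3 were the more frequent ones of their classes, whereas Socs2 was lower in a class where only 6.31% were. Of the 5 single-coding-exon members, 3 were higher and none was lower, although Socs3 was lower with the GC trend removed. Leaving these 5 out, 21.7% of the remaining 807 genes of the class were higher. The part of exon number or of m6A in the directions of the 10 genes was not tested.

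**Figure D3:**
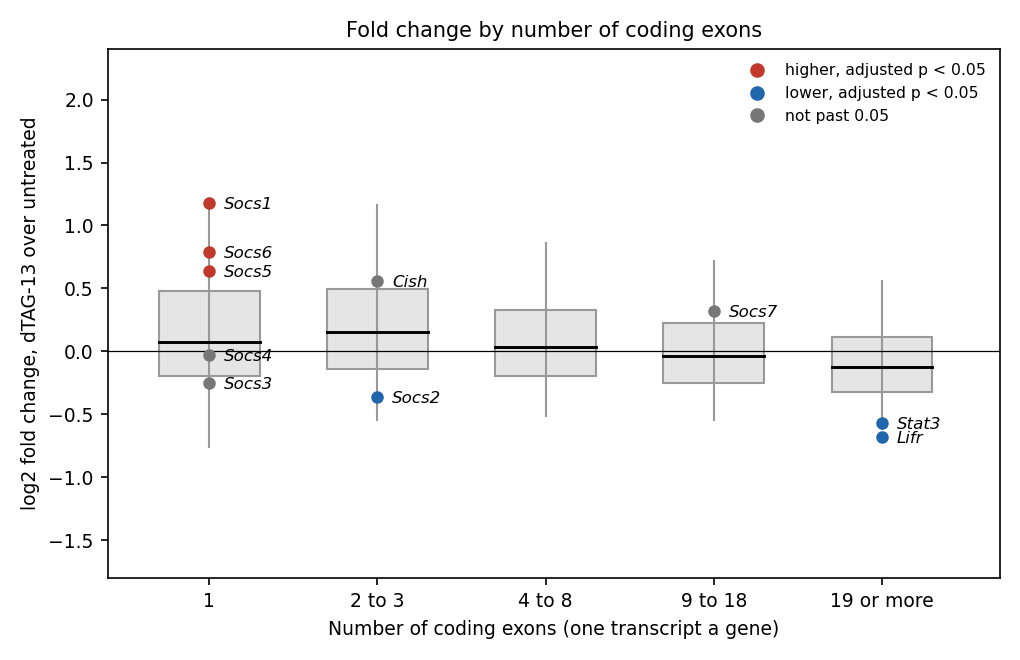
log2 fold change (dTAG-13 over untreated) by number of coding exons, for coding genes whose mean count reached 10. Boxes span the 25th to 75th percentile with the median as a black line, grey lines span the 5th to 95th percentile, and points are the 10 genes. Medians are 0.070 and 0.15 at the left and -0.13 at the right, and Socs1, Socs5 and Socs6 lie above their class's box, as do Cish and Socs7, while Socs2, Socs3, Lifr and Stat3 lie below theirs.

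The transcripts of the 10 genes varied widely in composition. Socs4 and Socs6 were poorest in GC, at 38.5% and 39.9%, and Socs1 and Socs3 richest, at 58.8% and 58.7%, against a median of 50.6% over coding genes. GGAC was densest in Socs2, at 6.75 per kb, followed by Socs1 at 5.16 and Socs3 at 5.09, and sparsest in Socs6 at 1.82 and Socs4 at 1.60. The median coding gene had 4.25. Whether the changes go with the density of these letters was not tested. Of the genes past the threshold, Socs1, Socs5 (4.30 per kb) and Socs6 were higher. Socs2, Lifr (2.80) and Stat3 (2.44) were lower. The letters ATTTA are the core of AU-rich elements through which many cytokine-induced mRNAs decay. Per kb of 3′ UTR they were densest in Socs4 at 3.28, Cish at 2.76, Socs3 at 2.71 and Socs6 at 2.49, against a median of 1.17 over coding genes, and they were absent from Socs1. The exon with the stop codon was long in Lifr (6944 bases), Socs4 (6586), Socs6 (5750) and Socs5 (4218), but 151 bases in Socs7, against a median of 1220. Over the genes whose mean count reached 10, the shares were close for long and shorter ones. Where this exon reached 2000 bases, 14.1% were higher and 11.6% lower, and where it was shorter, 13.7% and 12.3%. Socs4 and Socs6 resembled each other in length, GC content and these motifs, yet their log2 fold changes were -0.026 and 0.79.

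Around the 10 genes, 72 other pathway genes were listed by role, and 70 of them were in the table. Of these, 10 were higher and 6 lower, together 22.9%, close to the 20.0% of all genes, and their median log2 fold change was 0.031. Of the 12 ligands and receptors measured, 2 were higher and 1 lower. Cntf, encoding a cytokine that also signals through LIFR, was higher by 1.17 on the log2 scale (adjusted p = 0.000624) at a mean count of 33.3. Osm, encoding oncostatin M, fell by 1.09 on the log2 scale (adjusted p = 0.0328) at a mean count of 29.1. The central pair of the LIF pathway beside Lifr did not pass. Lif had -0.21 ± 0.19 (SE, adjusted p = 0.514) and Il6st, the gp130 gene, -0.30 ± 0.13 (SE, adjusted p = 0.0995).

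None of the 4 JAK family kinases passed as deposited, with a median of 0.13, but calls appeared under other scalings. Jak1, the main kinase of gp130, had a value of 0.23 (adjusted p = 0.0890), Jak2 0.14 (adjusted p = 0.711) and Tyk2 -0.14 (adjusted p = 0.390). Jak1 passed when centred on well-expressed genes (0.28, adjusted p = 0.0304) and with the GC trend removed (0.31, adjusted p = 0.0165), and Tyk2 passed with the GC trend removed (-0.29, adjusted p = 0.0411). The other STAT genes changed more often, with 3 of 6 higher and 2 lower. Stat4 fell by 1.21 on the log2 scale (adjusted p = 6.94e-13). Stat6, which acts downstream of interleukin 4, was higher by 0.48 (adjusted p = 0.00241). Stat5a and Stat5b, the closely related STATs that CIS restrains, were higher by 0.82 (adjusted p = 0.0302) and 0.54 (adjusted p = 0.0396) at low mean counts of 38.8 and 75.7. The calls of Stat5a and Stat5b were lost when the GC trend was removed.

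Among 8 phosphatases and PIAS genes, 2 were higher and none lower. Ptpn6, which encodes the phosphatase SHP-1, was higher by 0.45 (adjusted p = 0.0128), and Pias4, a SUMO ligase that restrains STATs, by 0.60 (adjusted p = 7.67e-05), a call lost when the GC trend was removed. None of 10 STAT3 target genes of stem cells passed as deposited, with a median of 0.031 in a range from -0.59 to 0.28. Klf4, a pluripotency factor downstream of STAT3, had a value of 0.059 ± 0.21 (SE, adjusted p = 0.889) and the kinase gene Pim1 -0.18 ± 0.10 (SE, adjusted p = 0.235). Tfcp2l1, another factor through which LIF sustains mES cells, had -0.46 ± 0.19 (SE, adjusted p = 0.0830). This depended on the setting. With the GC trend removed, Pim1 (-0.28, adjusted p = 0.0451) and Junb (-0.48, adjusted p = 0.0264) were lower, and with adjustment over genes whose mean count reached 10, Klf5 was lower (-0.59, adjusted p = 0.0490). Junb and Klf5 are named here because their calls changed.

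The ligase that SOCS proteins recruit was represented by 5 genes, of which only the cullin itself changed. Cul5 fell by 0.34 on the log2 scale (adjusted p = 0.0103) at a mean count of 2839, a call lost when the GC trend was removed. Of 25 other SOCS box genes measured, 9 had a mean count under 10, 3 were higher and 2 lower. Spsb2 and Spsb4, whose proteins mark inducible nitric oxide synthase for degradation, were higher by 1.55 (adjusted p = 3.40e-09) and 1.25 (adjusted p = 1.10e-06). Both point estimates were above the 1.18 of Socs1, but the differences were not tested. Asb8 was higher by 0.81 (adjusted p = 1.04e-06). Asb1 fell by 0.45 (adjusted p = 0.00543) and Rab40c by 0.29 (adjusted p = 0.0453), the latter a call lost when values were centred on well-expressed genes.

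**Figure D4:**
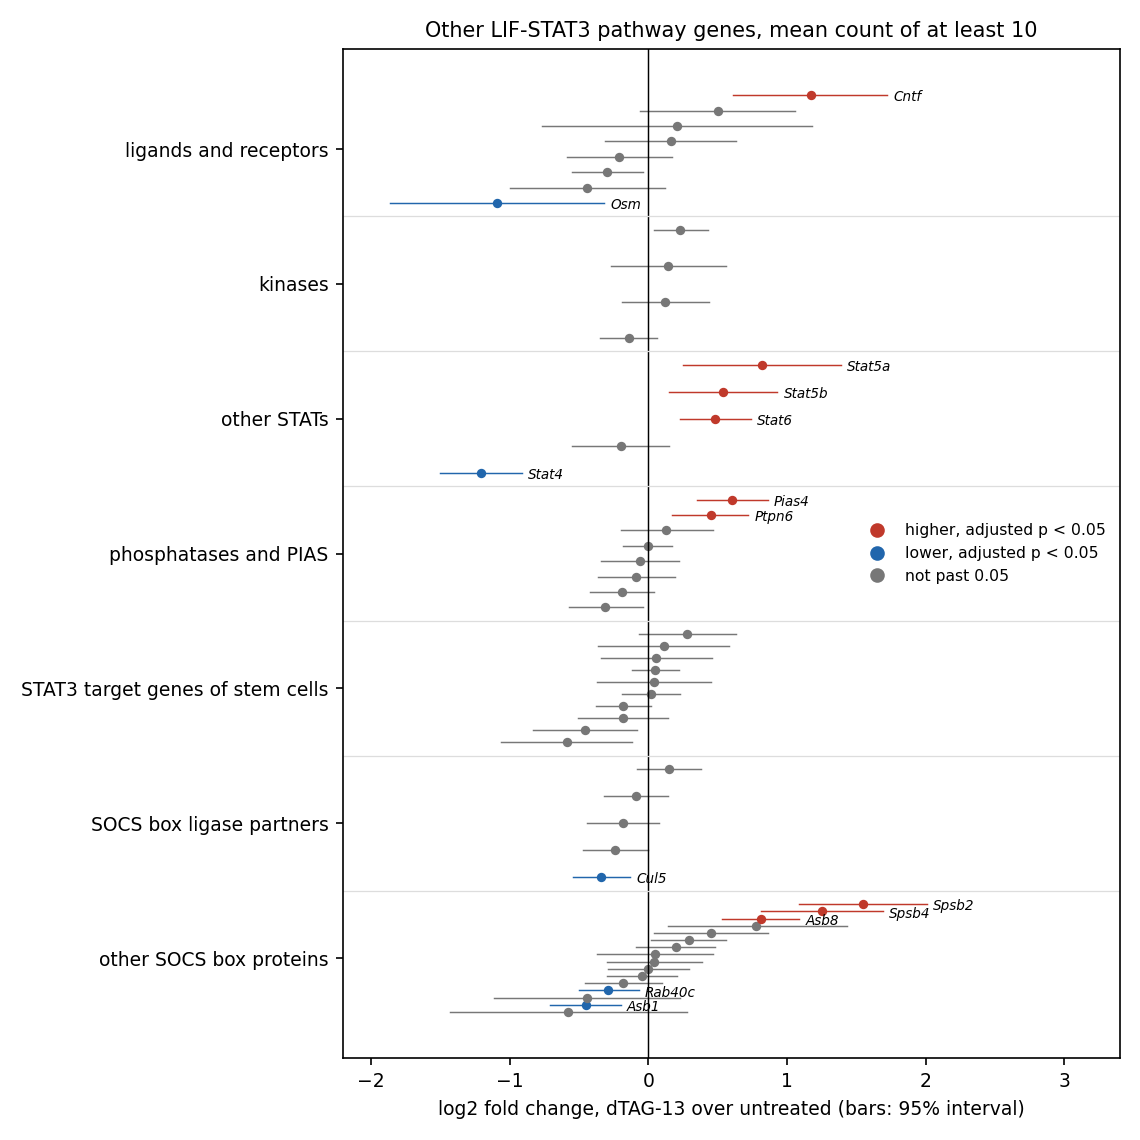
log2 fold change (dTAG-13 over untreated) of 56 other pathway genes whose mean count reached 10, grouped by role, with bars for the 95% interval and names for genes with an adjusted p under 0.05. Stat5a, Stat5b and Stat6 lie to the right of 0 with their whole interval and Stat4 to the left, whereas no kinase and no STAT3 target gene passed on these deposited values.

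The labelled cell type was checked against its markers. The 10 markers of embryonic stem cells had a summed mean count of 62017 and a median log2 fold change of -0.024, with 1 higher and 2 lower. The 18 fibroblast markers, for feeder cells, summed to 13342 with a median of 0.052, and 1 was higher (Twist1) and 1 lower (Vim, at 0.499 of its untreated level, adjusted p = 0.00380). Most of that sum came from Fn1, Sparc and Vim. The collagen genes were low, with mean counts of 19.8 for Col1a1, 13.8 for Col1a2 and 8.38 for Col3a1. The other markers ranged from 0.768 for Postn to 1261 for S100a6, with Lgals1 at 972 and Fbn1 at 361. Of the 18 markers, 13 reached a mean count of 10 and 5 did not. The part of feeder cells in the changes of the 10 genes was not tested. In bulk RNA, fewer cells of a type and less RNA per cell cannot be told apart.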

How the data were processed

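Total RNA from 8 libraries was sequenced as stranded pairs; the extraction text of the labels describes chromatin RNA, whereas the molecule label and the study's methods give total RNA. The authors aligned reads to mm10, removed duplicates with Picard and counted genes and transposable elements with TEtranscripts, whose DESeq2 step applies a Wald test with no covariate for clone. One table of 18694 features was deposited. Its signal column is the mean over libraries of counts divided by size factors, as deposited by the authors. The log2 fold changes and standard errors are those of the authors' fit, the deposited score is the Wald statistic, and the authors gave p-values raw and after Benjamini-Hochberg adjustment. Use of strand in counting is uncertain, since the name of the table carries the word reverse, which can also stand for an inverted contrast. The study describes its RNA-seq replicates as independent clones or repeats, with the wells of a replicate divided between conditions from a shared batch of cells. Depth per library is unknown, and counting error was computed from the mean count over 8 libraries.

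No model was refitted, and gene values are those of the authors' deposited table. In all 18694 features the statistic, p and adjusted p followed from the fold change and standard error (tolerance 1e-06). Intervals are 95% normal intervals. The 10 genes, the pathway lists and the naming rule (all 10 genes, pathway genes past 0.05, Mettl3, and Lif, Il6st, Jak1, Jak2, Tyk2, Klf4, Tfcp2l1 and Pim1) were chosen with earlier results of these data known. Some pathway genes that enter the counts are not reported here by name. The feeder genes, Klf5 and Junb were named after their values were seen. Symbols were matched to GENCODE vM21 (GRCm38, the build of mm10), 16660 directly and 721 through an older symbol, so that 17381 genes (98.8%) had a transcript. The transcript was the basic protein-coding one with the best APPRIS level, then the longest. Alternatives were adjustment over genes whose mean count reached 10, centring on genes whose mean count reached 100 (a shift of -0.050), removal of a running median by GC content over 501 genes, a change of at least 1.5-fold, an adjusted p under 0.01, and union exon length. Except for union exon length, these settings were also run on simulated data, where recovery of known changes was required only of GC removal. All steps were run in Python 3.11.15 with pandas 2.3.3 and scipy 1.17.1.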

Additional observations from a re-analysis of the deposited data

How the results depend on the processing

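Lifr, Stat3, Socs1, Socs5 and Socs6 kept their direction and passed 0.05 under the other adjustment, centring and GC settings. The number of the 10 genes past the threshold was 6 under each of these, 4 with a change of at least 1.5-fold (Stat3 and Socs2 lost) and 5 at an adjusted p under 0.01 (Socs2 lost). Socs2 was also lost, and Socs7 or Socs3 gained, by centring or GC removal. Socs4 changed sign to 0.024 (centred) and 0.17 (GC trend removed). Pathway genes past the threshold numbered 16, and 9 with a change of at least 1.5-fold and 8 at an adjusted p under 0.01, which follows from the stricter rule. Centring subtracted a median of -0.050 from every value, which by itself makes more genes higher and fewer lower. It turned 1881 higher and 1645 lower genes into 2200 and 1239. Why that median lay below 0 was not tested. Over all genes, 1599 passed with a change of at least 1.5-fold and 2230 at an adjusted p under 0.01, of 3526. Mean counts per kb moved with union exons in Stat3, Cish, Socs2 and Socs6.

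No paired analysis was possible because the table holds no values per library, although the wells of a replicate came from a shared batch of cells. For the same reason the fit with clone and replicate number as a replicate block and the fits leaving out each library were not run, so whether 1 clone or library decides a value is unknown here. Low depth limits Socs1 and Cish, but their standard errors were also 1.81 and 1.77 times what counting alone would give.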
